A study of Homo sapiens with 4 samples.

Results

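LIN28B and LIN28A, the paired RNA-binding proteins that block maturation of the let-7 microRNAs, were the most reduced of a set of 10 oncofetal RNA-binding and let-7 pathway genes in BRD9 KO rhabdoid tumor (RT) cells. LIN28B stood at 33.9% of its level in LacZ control cells and LIN28A at 51.5%. IGF2BP1, a reader of methylated mRNA, stood at 75.8% and HMGA2, an architectural chromatin protein, at 78.6%. The remaining genes, TRIM71, ZCCHC11, DICER1, IGF2BP2, HMGA1 and IGF2BP3, lay between 84.1% and 100.8%. These levels are TMM-scaled CPM, read counts relative to the size of the library, averaged over 2 libraries per group.

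The set comprised LIN28A, LIN28B, IGF2BP1, IGF2BP2, IGF2BP3, HMGA1, HMGA2, DICER1, TRIM71 and ZCCHC11, found by the symbol that follows the Ensembl identifier in each table. All 10 were found among 57820 gene models, and all 10 passed the filter on low counts, as did 15288 models in all. The genes were picked with their difference between BRD9 KO and LacZ control already known, so their differences are a description and carry no test. The RNA-binding name covers LIN28A, LIN28B, the IGF2BP genes, DICER1, TRIM71 and ZCCHC11. HMGA1 and HMGA2 bind DNA and belong here as let-7 targets, and DICER1 is not an oncofetal gene.

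The study examined the dependence of SMARCB1-mutant RT cells on BRD9, a bromodomain subunit of a SWI/SNF chromatin remodeling complex. RNA-seq was performed in G401 cells, an established line from a kidney rhabdoid tumor, in 2 libraries labelled BRD9 KO, a CRISPR-Cas9 deletion, and 2 libraries labelled LacZ control, with LacZ as the control target. Both groups are SMARCB1-mutant and Cas9-expressing and were grown in DMEM with serum, and neither the guide nor the day of harvest is stated for these libraries in the sources used. The study could not recover BRD9-deficient clones of G401, and whether the BRD9 KO libraries are of pooled cells is not stated in its methods.

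The BRD9 gene itself had 29.4 and 26.8 CPM in BRD9 KO, against 48.2 and 53.8 CPM in LacZ control, or -0.86 in log2 fold change (SE 0.07; adjusted p = 2.84e-09 in edgeR), so its mRNA was lower but remained detectable in both BRD9 KO libraries. SMARCB1 had 0 counts in all 4 libraries, which allows up to 0.199 CPM in the shallowest, whereas the RT line markers VIM, KRT8 and KRT18 were abundant, with VIM lower and the keratins KRT8 and KRT18 higher in BRD9 KO (log2 fold changes of -0.49, 0.42 and 0.37). Of 7 markers of other cells found in the tables (leukocyte, endothelial, liver and kidney), PTPRC and CD3E had 0 counts throughout and only VWF passed the filter, at 2.10 and 2.45 CPM in BRD9 KO and 2.65 and 3.12 CPM in LacZ control, and its difference did not pass the threshold (edgeR adjusted p = 0.269). Library totals ran from 15053247 to 19559290 estimated counts. In bulk RNA, fewer cells that express a gene and less RNA per cell cannot be told apart.

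LIN28A and LIN28B bind the let-7 precursor hairpin, LIN28A recruits the uridylyl transferase ZCCHC11 (TUT4) to mark it for decay, and DICER1 otherwise cuts it into the mature microRNA. Mature let-7 pairs through its seed with sites in the 3′ UTRs of LIN28B, HMGA2, the IGF2BP genes and TRIM71, so that LIN28 and let-7 restrain each other. LIN28A, LIN28B, IGF2BP1 and IGF2BP3 are known for their expression in embryonic tissues, are silent in most adult tissues and are expressed again in many tumors.

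The mature let-7 family is shown because its shared seed, bases 2 to 8 in capitals, defines the target sites counted here. All 9 sequences are from RefSeq (GRCh38.p14) and carry the same seed.
hsa-let-7a-5p: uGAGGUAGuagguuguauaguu
hsa-let-7b-5p: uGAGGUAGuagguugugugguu
hsa-let-7c-5p: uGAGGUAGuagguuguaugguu
hsa-let-7d-5p: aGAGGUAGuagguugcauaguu
hsa-let-7e-5p: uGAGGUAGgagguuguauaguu
hsa-let-7f-5p: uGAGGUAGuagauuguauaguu
hsa-let-7g-5p: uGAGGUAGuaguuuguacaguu
hsa-let-7i-5p: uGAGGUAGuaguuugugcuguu
hsa-miR-98-5p: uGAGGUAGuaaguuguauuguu

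LIN28 proteins are known to contact a GGAG motif near the end of the precursor loop, so the hairpins were searched for GGAG on the transcribed strand between the mature arms. It was present in 9 of the 12 let-7 hairpins and in 7.1% of 732 other human hairpins with both arms in the table. MIRLET7A3, MIRLET7B and MIR98 lacked these letters in that window, which says nothing of whether LIN28 binds them. Examples with and without the motif follow, with the seed and, where present, the last GGAG in capitals (RefSeq, GRCh38.p14).
MIRLET7A1, with GGAG: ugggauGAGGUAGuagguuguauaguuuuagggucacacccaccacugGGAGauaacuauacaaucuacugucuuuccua
MIRLET7G, with GGAG: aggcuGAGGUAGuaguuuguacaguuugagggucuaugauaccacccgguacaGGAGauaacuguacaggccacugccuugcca
MIRLET7A3, without GGAG: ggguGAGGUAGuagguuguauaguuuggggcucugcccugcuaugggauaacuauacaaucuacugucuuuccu
MIRLET7B, without GGAG: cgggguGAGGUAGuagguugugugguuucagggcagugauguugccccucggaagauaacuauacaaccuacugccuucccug

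The 3′ UTRs of the canonical transcripts (GENCODE v44 on GRCh37, the build of the files) were searched on the transcript strand. The searches were for CTACCTC, the match to the 7-base seed, and for CTACCTCA, the same followed by an A. Each 8-base match is therefore also a 7-base match. The 7-base match occurred 22 times in 8 of the 10 genes and the 8-base match in 7 of them. Of 19403 3′ UTRs in the annotation, 9.79% held the 7-base and 3.75% the 8-base match, and of the 3579 that are at least 3000 bases long, 26.0% and 10.3%. TRIM71 had 6 matches, LIN28B, HMGA2 and IGF2BP1 had 4 each, and these genes are 4 of only 12 in the annotation with 4 or more. LIN28A, IGF2BP2, IGF2BP3 and HMGA1 had 1 each. DICER1 and ZCCHC11 had none. Since several of the genes entered the set as known let-7 targets, their site numbers describe the choice. The sites of LIN28B and HMGA2 and the only site of LIN28A are given below with 15 bases upstream, the matched bases in capitals, all on the plus strand and all in 3′ UTR exons.
LIN28B, chr6:105526687-105526709: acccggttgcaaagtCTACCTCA
LIN28B, chr6:105529114-105529136: tactgatgatagtaaCTACCTCt
LIN28B, chr6:105529296-105529318: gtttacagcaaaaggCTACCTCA
LIN28B, chr6:105530735-105530757: aaatgatggtgttgaCTACCTCt
LIN28A, chr1:26753839-26753861: gcacagcctattgaaCTACCTCA
HMGA2, chr12:66357078-66357100: gccaacgttcgatttCTACCTCA
HMGA2, chr12:66358313-66358335: ccccactactcaataCTACCTCt
HMGA2, chr12:66358725-66358747: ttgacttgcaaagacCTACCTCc
HMGA2, chr12:66359578-66359600: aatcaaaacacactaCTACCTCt

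**Figure D1:**
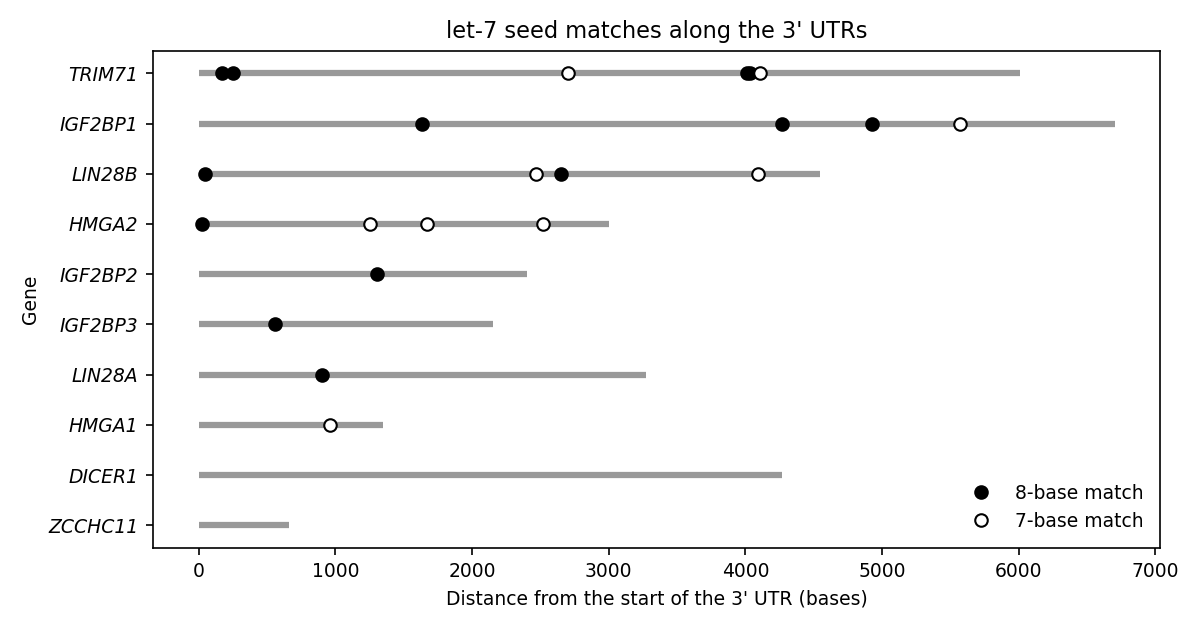
Positions of let-7 seed matches along the 3′ UTRs of the 10 genes, in bases from the start of the 3′ UTR. Grey bars run the length of each 3′ UTR, filled circles are 8-base matches and open circles 7-base matches; TRIM71 has 6 matches over 6013 bases, LIN28B has 4 over 4549 bases, and DICER1 and ZCCHC11 have none.

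The first matches of LIN28B and HMGA2 lay close to the stop codon, 44 and 21 bases into the 3′ UTR. In TRIM71, an E3 ligase and a conserved let-7 target, 2 of the 8-base matches began 4009 and 4032 bases into the 3′ UTR, next to each other. The 4 matches of IGF2BP1 lay between bases 1632 and 5568 of its 6701-base 3′ UTR.

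LIN28B (ENSG00000187772.6, chr6:105384491-105531207, plus strand) was the least abundant of the 10 genes and the most reduced. It had 2.06 and 1.95 TPM (a level within a library per transcript length) in BRD9 KO, against 5.83 and 5.93 TPM in LacZ control, from 132 and 104 estimated counts in BRD9 KO and 289 and 326 in LacZ control. Both BRD9 KO libraries lay far below both LacZ control libraries, and the libraries of a group were close to each other. The log2 fold change was -1.56 (SE 0.10), that is 2.94-fold lower in BRD9 KO. Among the 15288 genes tested, 113 including LIN28B had a log2 fold change at least this low.

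LIN28A (ENSG00000131914.6, chr1:26737308-26756219, plus strand), which acts on let-7 precursors mainly in the cytoplasm, had 44.28 and 45.03 TPM in BRD9 KO, against 86.52 and 86.03 TPM in LacZ control. The groups did not overlap, and the libraries within a group differed by less than 1 TPM. Its log2 fold change was -0.96 (SE 0.03), or 1.94-fold lower in BRD9 KO. LIN28A was the main LIN28 transcript of these cells in both groups. LIN28B made up 4.45% and 4.15% of the summed LIN28 TPM in BRD9 KO, against 6.31% and 6.45% in LacZ control, and the ratio of LIN28A to LIN28B was 21.5 and 23.1 in BRD9 KO and 14.8 and 14.5 in LacZ control. LIN28B was thus reduced by more than LIN28A on a scale that is free of the total of each library.

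**Figure D2:**
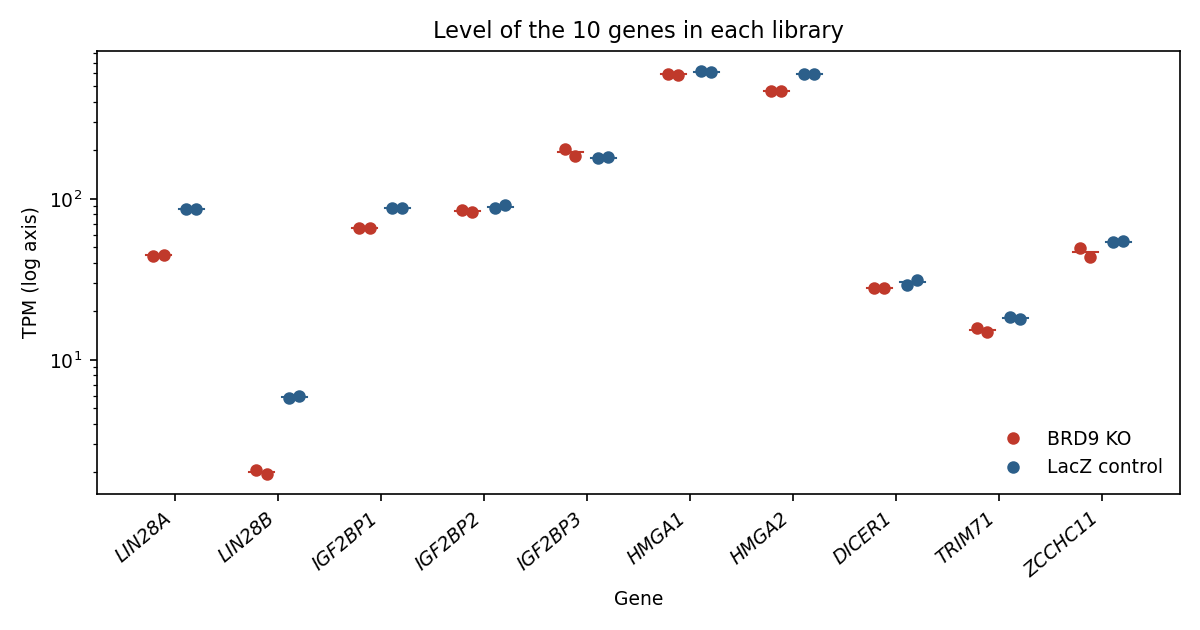
TPM of the 10 genes in each of the 4 libraries, on a log axis, BRD9 KO in red and LacZ control in blue. Points are libraries and short lines are group means; LIN28B (2.06 and 1.95 in BRD9 KO, 5.83 and 5.93 in LacZ control) and LIN28A show the widest gaps, and for IGF2BP3 the BRD9 KO points lie slightly above those of LacZ control.

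The IGF2BP family are mRNA-binding proteins that recognize N6-methyladenosine (m6A) and protect their target mRNAs from decay. IGF2BP1 (ENSG00000159217.5, chr17:47074747-47133507, plus strand) had 65.6 and 66.05 TPM in BRD9 KO, against 87.12 and 88.04 TPM in LacZ control. Its groups were well apart, with a log2 fold change of -0.40 (SE 0.02). IGF2BP2 (ENSG00000073792.11, chr3:185360918-185542830, minus strand) had 84.99 and 82.48 TPM in BRD9 KO, against 87.88 and 91.19 TPM in LacZ control, and its log2 fold change was -0.06 (SE 0.03). The BRD9 KO libraries were again the lower ones, by a margin close to the difference between libraries of a group. IGF2BP3 (ENSG00000136231.9, chr7:23349828-23510110, minus strand) was the most abundant of the family, with 205.23 and 185.51 TPM in BRD9 KO, against 178.12 and 181.89 TPM in LacZ control.

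For IGF2BP3 the scale mattered. In CPM the groups overlapped, with 349.1 and 331.6 in BRD9 KO and 331.8 and 343.5 in LacZ control, and the log2 fold change was 0.01 (SE 0.03). In TPM both BRD9 KO libraries were above both LacZ control libraries, and a fit to log2(TPM + 1) gave a log2 fold change of 0.12. The length by which TPM is divided was shorter in BRD9 KO, as given with the transcript lengths. Summed over the family, IGF2BP TPM came to 355.8 and 334.0 in BRD9 KO and 353.1 and 361.1 in LacZ control, so the sums overlapped. The composition did not: IGF2BP1 contributed 18.4% and 19.8% in BRD9 KO, against 24.7% and 24.4% in LacZ control, and IGF2BP3 contributed 57.7% and 55.5% in BRD9 KO, against 50.4% in each LacZ control library.

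**Figure D3:**
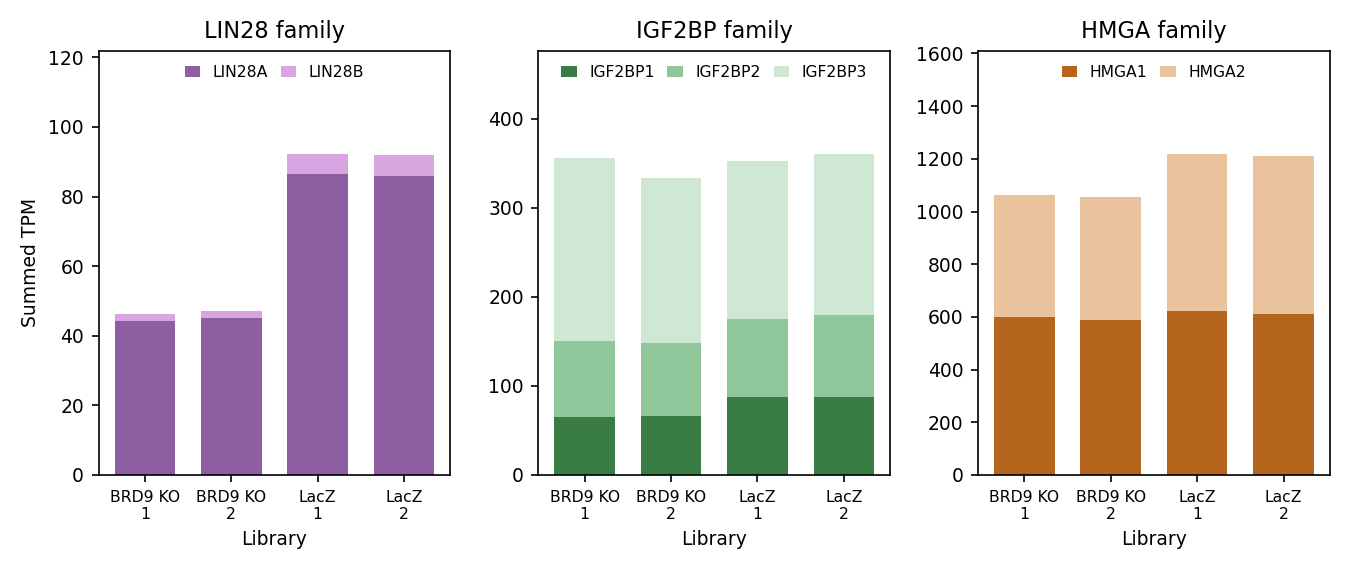
Summed TPM of the LIN28, IGF2BP and HMGA families in each library, with the shares of the family members stacked. Each panel has its own axis from 0; the LIN28 sum is 46.3 and 47.0 TPM in BRD9 KO and 92.4 and 92.0 TPM in LacZ control, whereas the IGF2BP sums of the groups overlap.

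HMGA1 and HMGA2 bend AT-rich DNA, and HMGA2 is the best-known let-7 target of the set. HMGA2 (ENSG00000149948.9, chr12:66218240-66360071, plus strand) had 463.94 and 466.17 TPM in BRD9 KO, against 597.34 and 598.91 TPM in LacZ control. The separation was many times the difference between libraries of a group, with a log2 fold change of -0.35 (SE 0.01). HMGA1 (ENSG00000137309.15, chr6:34204650-34214008, plus strand) had 598.1 and 587.1 TPM in BRD9 KO, against 622.54 and 611.37 TPM in LacZ control, a log2 fold change of -0.06 (SE 0.01). The HMGA1 groups did not overlap either, but the gap was about as wide as the difference between libraries of a group. HMGA2 made up 43.7% and 44.3% of the summed HMGA TPM in BRD9 KO, against 49.0% and 49.5% in LacZ control.

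TRIM71, ZCCHC11 and DICER1 act on either side of let-7, TRIM71 as a target and the others on the precursor. TRIM71 (ENSG00000206557.5, chr3:32859489-32939316, plus strand) had 15.81 and 14.98 TPM in BRD9 KO, against 18.42 and 17.94 TPM in LacZ control, with a log2 fold change of -0.25 (SE 0.04). ZCCHC11 (ENSG00000134744.9, chr1:52873954-53019159, minus strand; named TUT4 in the annotation) had 49.62 and 43.62 TPM in BRD9 KO, against 54.05 and 54.43 TPM in LacZ control, with a log2 fold change of -0.16 (SE 0.03). DICER1 (ENSG00000100697.10, chr14:95552565-95624347, minus strand) had 28.03 and 27.88 TPM in BRD9 KO, against 29.16 and 31.49 TPM in LacZ control, with a log2 fold change of -0.09 (SE 0.03). For each of these genes both BRD9 KO libraries were below both LacZ control libraries, by small margins for ZCCHC11 and DICER1.

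By mean TPM the order in BRD9 KO was HMGA1 at 592.6, HMGA2 at 465.1, IGF2BP3 at 195.4, IGF2BP2 at 83.7, IGF2BP1 at 65.8, ZCCHC11 at 46.6, LIN28A at 44.7, DICER1 at 28.0, TRIM71 at 15.4 and LIN28B at 2.0. In LacZ control it was HMGA1 at 617.0, HMGA2 at 598.1, IGF2BP3 at 180.0, IGF2BP2 at 89.5, IGF2BP1 at 87.6, LIN28A at 86.3, ZCCHC11 at 54.2, DICER1 at 30.3, TRIM71 at 18.2 and LIN28B at 5.88. The order was the same apart from LIN28A, which stood above ZCCHC11 in LacZ control and level with it in BRD9 KO, where the libraries of ZCCHC11 spanned those of LIN28A. In LacZ control the libraries of IGF2BP1 and IGF2BP2 overlapped.

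In the fit over all genes, 8 of the 10 genes were called lower in BRD9 KO at an edgeR adjusted p under 0.05 and 0 higher. Of all 15288 genes tested, 38.6% were called, 20.5% higher and 18.1% lower. In CPM both BRD9 KO libraries were below both LacZ control libraries for 9 of the 10 genes, against 34.5% of all genes tested. The median log2 fold change was -0.20 over the set and -0.01 over all genes tested. The set was chosen with this contrast known, so nothing is read from these counts. LIN28A, LIN28B, IGF2BP1 and HMGA2 were called lower in every one of 12 fits, and the call of DICER1 was lost when any 1 of the 4 libraries was left out, that of HMGA1 without LacZ control replicate 1.

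**Figure D4:**
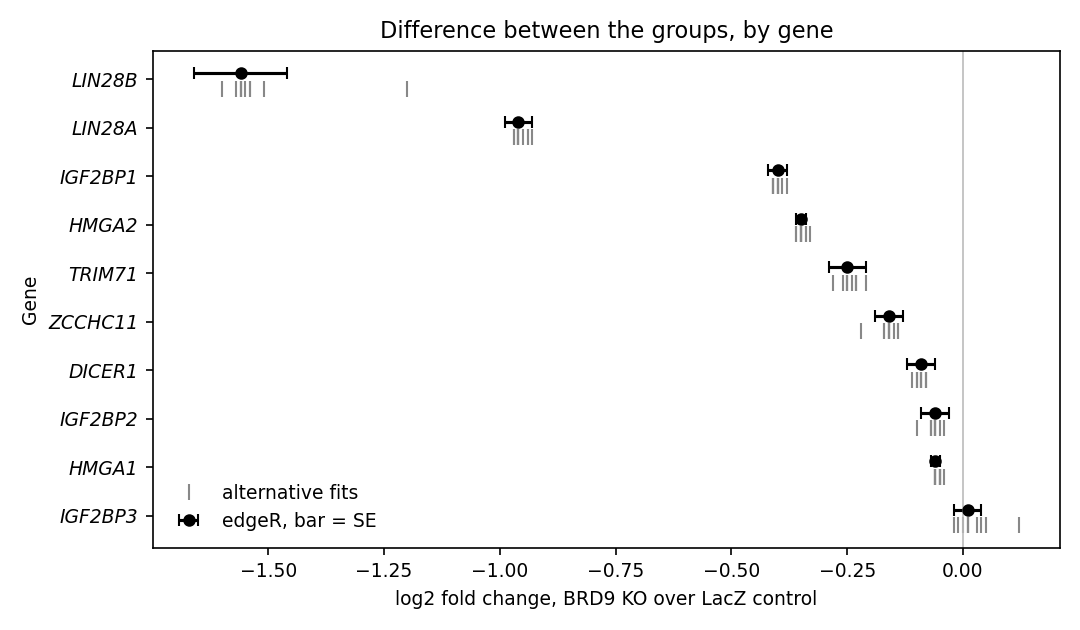
Log2 fold change of each gene, BRD9 KO over LacZ control; black points are the edgeR values with their SE and grey ticks the 11 alternative fits. LIN28B lies at -1.56 and LIN28A at -0.96, IGF2BP3 lies at 0.01, and the outlying LIN28B tick at -1.20 is the fit to log2(TPM + 1), a scale that shrinks differences of low genes.

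The deposited tables also give each gene a length, the mean length of its transcripts weighted by their abundance, so a difference in length is a difference in the transcripts to which reads were assigned. LIN28B and TRIM71 each had 1 transcript model, of 5505 and 8685 bases. Of the other 8 genes, the lengths of the groups did not overlap for IGF2BP1, IGF2BP2, IGF2BP3 and HMGA2, that is 4 of 8, against 37.5% of the 12632 tested genes whose length varied. IGF2BP3, with 17 transcript models, was assigned 2897 and 3039 bases in BRD9 KO, against 3149 and 3182 bases in LacZ control, a mean difference of -197.2 bases. The lengths of IGF2BP1, IGF2BP2 and HMGA2 were longer in BRD9 KO, by 117.2, 92.9 and 73.5 bases, and the HMGA2 length was 4334 and 4327 bases in BRD9 KO and 4269 and 4244 bases in LacZ control.

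The library kit does not mark strand, so reads from exons shared with a gene on the other strand cannot be told apart. IGF2BP3 shares 1521 exonic bases with MALSU1, a mitochondrial ribosome assembly factor, and MALSU1 rose (log2 fold change 0.20, edgeR adjusted p = 0.00107), a call lost in the fit to log2(TPM + 1) (limma adjusted p = 0.267). HMGA2 shares 384 bases with RP11-366L20.2, with 232 and 177 estimated counts in BRD9 KO and 307 and 342 in LacZ control (log2 fold change -0.84, edgeR adjusted p = 3.78e-07). DICER1 shares 80 bases with DICER1-AS1, which fell to 42 and 37 counts in BRD9 KO, against 86 and 88 in LacZ control (log2 fold change -1.31, edgeR adjusted p = 2.75e-05). LINC00577, which shares 181 bases with LIN28B, had 0 counts in both BRD9 KO libraries and 0 and 1 in LacZ control, and 3 models that share exons with IGF2BP1 had 9 counts or fewer in every library. The part of these shared exons in the differences was not tested.

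The 5 genes whose levels followed LIN28B most closely over the 4 libraries were FGFBP3, PSG11, COL1A2, HPD and RSPO3. They came from 10768 genes whose mean over the libraries was 5 CPM or more. Gene models with a clone name as their symbol were left out of that number. Likeness was the distance between centred log2 CPM values, which was 0.0583 for FGFBP3 and 0.177 for RSPO3, and with 2 groups of 2 it reflects little more than a similar group difference. FGFBP3, a carrier protein for fibroblast growth factors, had 74.1 and 68.9 CPM in BRD9 KO, against 216.1 and 217.2 CPM in LacZ control, and COL1A2, a type I collagen chain, had 198.6 and 193.6 CPM in BRD9 KO, against 529.1 and 526.9 CPM in LacZ control. LIN28B itself had 6.77 and 6.37 CPM in BRD9 KO and 19.2 and 19.6 CPM in LacZ control. PSG11 belongs to a family of near-identical genes, and the posterior standard deviation of its count reached 4.64% of the count, against 0.958% at most among the 10 genes.

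The let-7 microRNAs were not measured, since libraries of this kind do not hold RNA of that length. Of the 16 let-7 hairpin and host gene rows found in the tables, 12 had 0 counts in all 4 libraries, and only 3 host genes passed the filter. LINC00478, host of let-7c, had 6.41 and 6.92 CPM in BRD9 KO, against 9.15 and 11.8 CPM in LacZ control (log2 fold change -0.66, edgeR adjusted p = 0.000783), a call that was lost without LacZ control replicate 2 (adjusted p = 0.0615). HUWE1, host of let-7f-2 and miR-98, fell by 0.16 in log2 (edgeR adjusted p = 0.000414), and WDR82, which overlaps let-7g, rose by 0.09 (edgeR adjusted p = 0.000432). All 3 calls were lost in the fit to log2(TPM + 1), with limma adjusted p-values of 0.171 for LINC00478, 0.187 for HUWE1 and 0.103 for WDR82.

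Of 23 genes that make, tail or destroy microRNAs, 6 rose, 5 fell and 12 did not pass the threshold. Over all genes tested, 20.5% were called higher and 18.1% lower, the background for this list and the lists that follow. The median log2 fold change of the 23 genes was -0.02, against -0.01 over all genes. It was 0.02 without BRD9 KO replicate 1 and 0.03 without LacZ control replicate 2, and the fit to log2(TPM + 1) called 4 higher and 2 lower. HNRNPA1, which binds the let-7a-1 precursor and counteracts its processing, had 1518.0 and 1507.4 CPM in BRD9 KO, against 2001.9 and 2037.5 CPM in LacZ control (log2 fold change -0.42, edgeR adjusted p = 2.68e-17). TNRC6B, a GW182 protein that carries out silencing by Argonaute, fell by 0.47 (edgeR adjusted p = 4.32e-10). DDX5, a helicase of the nuclear Microprocessor, rose by 0.24 (edgeR adjusted p = 1.67e-10), and SYNCRIP, which also binds IGF2BP1, rose by 0.20 (edgeR adjusted p = 3.28e-07). DROSHA, the nuclear nuclease that starts processing, was named after its values were seen and had a log2 fold change of 0.05, with an edgeR adjusted p of 0.283.

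Known let-7 targets outside the set moved both ways. Of 22 tested, 8 rose, 9 fell and 5 did not pass the threshold, with a median log2 fold change of 0.04. The median was 0.08 without BRD9 KO replicate 1 and 0.01 without BRD9 KO replicate 2, and the fit to log2(TPM + 1) called 5 higher and 2 lower. CCND1, the G1 cyclin D1, rose by 0.32 (edgeR adjusted p = 1.10e-10), and EIF4G2, a translation initiation factor, rose by 0.19 (edgeR adjusted p = 4.17e-11). ARID3B, a DNA-binding protein of early development, fell by 0.31 (edgeR adjusted p = 2.05e-09).

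Tested genes other than the 10 were also grouped by the 8-base match in their 3′ UTR. With no match, 24.1% of 11675 genes rose and 19.3% fell, and with 1 match 25.0% of 503 rose and 19.7% fell, both with a median log2 fold change of 0.01. With 2 or more matches, 1 of 21 genes rose and 11 fell, with a median of -0.15. These 21 genes include NR6A1, FIGN, BACH1 and IGDCC3, which were also on the list of known targets and fell by log2 values of 0.39, 0.37, 0.25 and 0.34 (edgeR adjusted p = 2.25e-05, 5.22e-05, 7.19e-05 and 0.0108). CBX5, the heterochromatin protein HP1 alpha, had 397.6 and 390.3 CPM in BRD9 KO, against 473.8 and 466.8 CPM in LacZ control (log2 fold change -0.25, edgeR adjusted p = 4.91e-10). PTAFR was the gene that rose, with 2.92 and 2.57 CPM in BRD9 KO and 1.06 and 0.840 CPM in LacZ control (edgeR adjusted p = 0.000452). CBX5 and PTAFR were named after their values were seen. These genes had long 3′ UTRs, with a median of 4251 bases against 1204 for genes with no match. Among 3′ UTRs of at least 3000 bases, 0 of 16 genes with 2 or more matches rose and 8 fell, against 26.0% and 21.2% of 2309 genes with none, by the same edgeR threshold. With the 7-base match the contrast was weaker, since 22.7% of 163 genes with 2 or more rose and 28.2% fell. The number of the 21 genes called lower was 7 without BRD9 KO replicate 2 or without LacZ control replicate 1, 6 with DESeq2 and 1 with limma on log2(TPM + 1), the fit in which the calls of CBX5, NR6A1, FIGN, BACH1, IGDCC3 and PTAFR were lost. The call of IGDCC3 was also lost without BRD9 KO replicate 2 (edgeR adjusted p = 0.0841), without LacZ control replicate 1 (edgeR adjusted p = 0.165) and with DESeq2 (adjusted p = 0.113). The groups were not tested against each other.

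Of 16 tested partners of the IGF2BP proteins in messenger ribonucleoproteins, 3 rose, 9 fell and 4 did not pass the threshold, with a median log2 fold change of -0.08. PABPC1, the cytoplasmic poly(A)-binding protein, had 4470.5 and 4478.5 CPM in BRD9 KO, against 6002.1 and 5935.1 CPM in LacZ control (log2 fold change -0.42, edgeR adjusted p = 7.63e-20). KHDRBS1, the splicing regulator SAM68, fell by 0.22 (edgeR adjusted p = 2.20e-08), and YBX1, a cold-shock domain protein, fell by 0.12 (edgeR adjusted p = 4.28e-07). HNRNPA1 and PABPC1 have processed copies in the genome, and the posterior standard deviations of their counts stayed at or below 0.165% of the count. Only 1 partner was called higher without LacZ control replicate 2, with DESeq2 or with limma on log2(TPM + 1), and the last of these fits called 4 lower.

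The m6A machinery that marks IGF2BP targets showed small differences. Of 15 genes, 5 rose, 3 fell and 7 did not pass the threshold, with a median log2 fold change of -0.04. The readers YTHDF2 and YTHDF3 rose by 0.21 and 0.14 (edgeR adjusted p = 2.24e-05 and 0.000987), the eraser ALKBH5 rose by 0.17 (edgeR adjusted p = 0.000366), and ZC3H13, a subunit of the writer complex, fell by 0.14 (edgeR adjusted p = 0.000607). The catalytic writer METTL3, named after its values were seen, gave -0.06 (edgeR adjusted p = 0.324). In the fit to log2(TPM + 1) the calls of YTHDF3, ALKBH5 and ZC3H13 were lost (limma adjusted p = 0.231, 0.0634 and 0.0609). The number called lower was 1 without BRD9 KO replicate 1, without LacZ control replicate 2 or with DESeq2 and 0 with limma, and the number called higher was 3 with DESeq2 and 2 with limma. The median was -0.01 without BRD9 KO replicate 1 and -0.02 without LacZ control replicate 1.

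Transcripts known to be bound by IGF2BP proteins were also mixed, with 4 of 15 tested higher, 5 lower, 6 not past the threshold and a median log2 fold change of 0.02. ACTB mRNA, which encodes beta-actin and gave IGF2BP1 its older name of zipcode-binding protein, had 2720.8 and 2747.5 CPM in BRD9 KO, against 3342.3 and 3347.7 CPM in LacZ control (log2 fold change -0.29, edgeR adjusted p = 1.49e-16). The proliferation marker MKI67 fell by 0.18 (edgeR adjusted p = 1.97e-06), a call lost in the fit to log2(TPM + 1) (limma adjusted p = 0.0641). CTNNB1, which encodes beta-catenin, rose by 0.12 (edgeR adjusted p = 1.20e-05), and FSCN1, an actin-bundling protein, rose by 0.15 (edgeR adjusted p = 0.000124). The number called lower was 3 without LacZ control replicate 2 or with DESeq2 and 2 with limma on log2(TPM + 1). The median was 0.07 without LacZ control replicate 2, 0.05 without BRD9 KO replicate 2 and -0.09 in the limma fit, so its sign was not stable. IGF2, the transcript for which the family is named, was at 0.154 and 0.184 CPM in BRD9 KO and 0.265 and 0.420 CPM in LacZ control and did not pass the filter.

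Among 15 other oncofetal genes 10 were tested, of which 2 rose, 6 fell and 2 did not pass the threshold. Over all genes tested, 20.5% were called higher and 18.1% lower. The median log2 fold change of these oncofetal genes was -0.33. It was -0.25 without LacZ control replicate 2 and -0.19 in the fit to log2(TPM + 1). GPC3, a cell-surface heparan sulfate proteoglycan, had 100.5 and 103.6 CPM in BRD9 KO, against 243.1 and 243.6 CPM in LacZ control (log2 fold change -1.25, edgeR adjusted p = 6.62e-18), a difference of the same order as those of LIN28A and LIN28B. TPBG, the trophoblast glycoprotein, fell by 0.38 (edgeR adjusted p = 4.27e-10), and CRABP2, which carries retinoic acid, rose by 0.27 (edgeR adjusted p = 1.67e-10). The imprinted RNA H19, named after its values were seen, was near the detection limit. It had 0.256 and 0.245 CPM in BRD9 KO and 0.663 and 1.56 CPM in LacZ control (log2 fold change -2.13, edgeR adjusted p = 0.00497). Its call was lost without LacZ control replicate 2, where the log2 fold change was -1.37. The call was also lost in the fit to log2(TPM + 1) (limma adjusted p = 0.0566), and DESeq2 gave H19 no adjusted p.

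Of 15 pluripotency genes only 5 were tested, and 2 of them fell, with a median log2 fold change of -0.15 that lay at -0.04 without BRD9 KO replicate 1, -0.25 without BRD9 KO replicate 2, -0.02 without LacZ control replicate 1 and -0.27 without LacZ control replicate 2. SALL4, a zinc finger factor that is also on the oncofetal list, had 70.6 and 71.2 CPM in BRD9 KO, against 92.7 and 86.0 CPM in LacZ control (log2 fold change -0.33, edgeR adjusted p = 2.36e-06). DNMT3B, a de novo DNA methyltransferase, had 16.1 CPM in each BRD9 KO library, against 22.2 and 22.6 CPM in LacZ control (log2 fold change -0.48, edgeR adjusted p = 7.42e-05), a call lost in the fit to log2(TPM + 1) (limma adjusted p = 0.0578). SOX2 had 0 counts in every library, and POU5F1 and NANOG stayed at or below 0.612 CPM in BRD9 KO and 0.480 CPM in LacZ control.

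**Figure D5:**
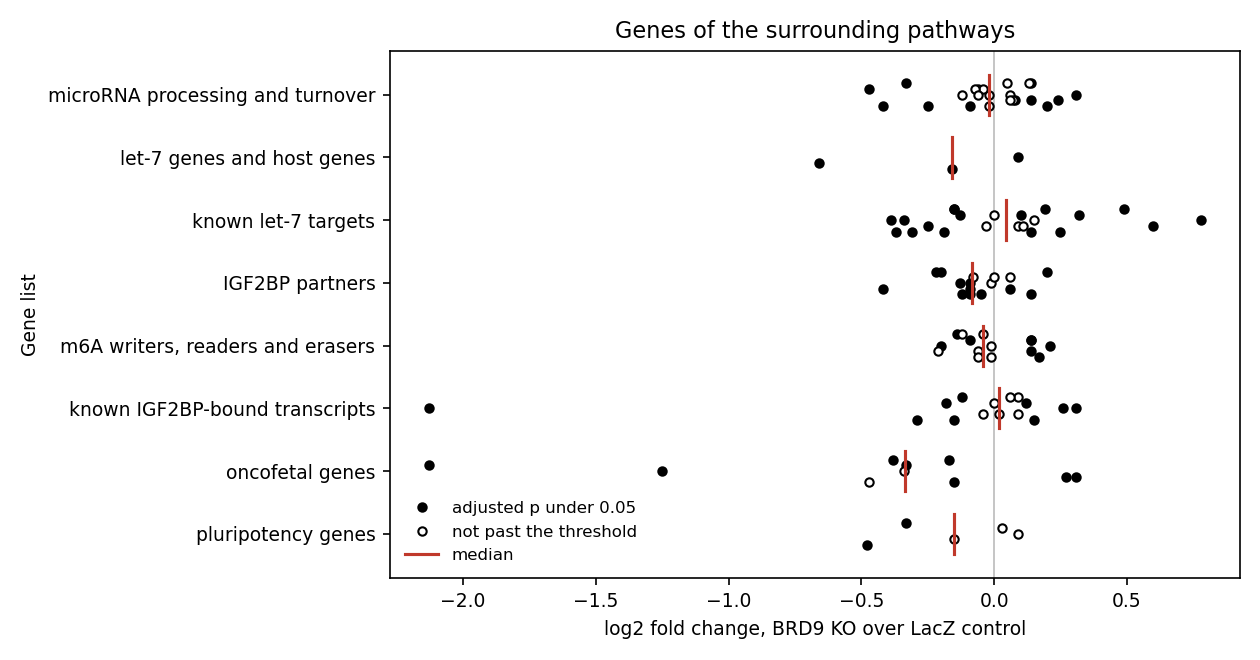
Log2 fold change, BRD9 KO over LacZ control, of each tested gene of the 8 surrounding lists; a gene on several lists is drawn in each. Filled points passed an edgeR adjusted p of 0.05, open points did not, and red bars are medians, from -0.33 for the oncofetal genes to 0.04 for the known let-7 targets; the lowest point on 2 lists is H19.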

How the data were processed

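RNA-seq was performed on 2 BRD9 KO and 2 LacZ control libraries of G401 cells, with a NEBNext Ultra kit that does not mark strand. Alignment by the authors used STAR against hg19, and RSEM gave the gene values. The submitters' processing notes also list DESeq2, and tool versions are not given in the sources used. The deposited expected counts (estimated counts) are unscaled RSEM values that share a multiply mapped read between genes. The deposited TPM values were made by the authors' RSEM run, per transcript length within a library. The deposited length and posterior standard deviation of each count were used as descriptions.

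Expected counts were rounded, scaled by TMM and filtered with filterByExpr, and tested with the two-sided quasi-likelihood test of edgeR 4.0.16 (R 4.3.3, robust, no covariate) on all 15288 genes kept. Benjamini-Hochberg adjusted p-values were taken over all of them, with calls at 0.05. Each log2 fold change is of BRD9 KO over LacZ control. DESeq2 1.42.0, limma 3.58.1 on log2(TPM + 1), and other scalings and filters were alternatives. Totals of 15053247 to 19559290 counts set the precision, and a count of 0 allows 3 counts, between 0.153 and 0.199 CPM; such limits cover counting error only. Replicates differed by more than sampling noise (chi-square over its degrees of freedom 1.57 in BRD9 KO, 1.60 in LacZ control). They are biological replicates by the study's methods, but separate cultures are not mentioned in the labels, so the p-values cover the spread among these libraries and no more.

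The 10 genes and all gene lists were chosen with earlier results of these data known. Genes named besides the 10 were BRD9, the 5 most like LIN28B, up to 4 called genes with the smallest p from each list, and genes that share exons with the 10; any other is said to be named after its values were seen. Some genes that this rule would name are not reported here. Gene coordinates and 3′ UTRs are from GENCODE v44 on GRCh37, which is hg19, and let-7 sequences from RefSeq (GRCh38.p14).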

Additional observations from a re-analysis of the deposited data

How the results depend on the processing

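The log2 fold changes of the 10 genes kept their sign in all 11 alternative fits, with the exception of IGF2BP3, which ran from -0.02 to 0.12. LIN28B ran from -1.60 to -1.20, LIN28A from -0.97 to -0.93, IGF2BP1 from -0.41 to -0.38 and HMGA2 from -0.36 to -0.33. Where 8 of the 10 were called lower, 6 to 7 were with a library left out, 6 with DESeq2, 6 with no filter on low counts, 9 under a filter of 1 CPM in every library and 4 with limma on log2(TPM + 1). TRIM71 and ZCCHC11 lost their calls in that last fit, HMGA1 and DICER1 in it, with DESeq2 and with no filter, and IGF2BP2 gained its call under the stricter filter (edgeR adjusted p = 0.0493). Over all genes 5901 were called, against 3339 with DESeq2 (1885 higher and 1454 lower) and 2444 with limma on log2(TPM + 1) (1341 higher and 1103 lower). With a library left out, 4195 to 4960 were called, 2357 to 2694 higher and 1838 to 2268 lower, the lowest without LacZ control replicate 2. Of 103 tested pathway genes outside the set, 65 were called, against 28 with limma on log2(TPM + 1). PEG3, on the oncofetal list, changed sign in that fit, to -0.05. The median log2 fold change of genes with 2 or more let-7 matches was -0.148 with the 8-base match, -0.021 with the 7-base match and, as an alternative added after seeing the data, -0.127 for long 3′ UTRs. The cause of these changes was not tested.

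With the replicate number as a replicate block, 6109 genes, 8 of the 10 and 66 pathway genes were called. The labels do not say whether same-numbered libraries were prepared together. Deviations of same-numbered libraries from their group means correlated at -0.0535 over the genes tested. With 2 libraries per group this value cannot settle the question. LIN28B rests on 104 to 326 estimated counts a library, the fewest of the 10 genes.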
